A study of Arabidopsis thaliana with 48 samples.

Results

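*hsfa3-1* seedlings were compared with wild type during late recovery from heat stress (HS), 28 h and again 52 h after an acclimation treatment (ACC). The comparison used 12 of the 48 RNA-seq libraries of the series, chosen by their labels: 3 of *hsfa3-1* and 3 of Col at each of the late time points, each time point being compared within itself. *hsfa3-1* is a line with a T-DNA insertion in *HSFA3* and is represented here by that 1 allele, with *HSFA2* intact. Col is the wild-type accession Col-0. Whole 4-d-old seedlings grown in long days were heated to 37 °C (1 h), kept for 90 min at 23 °C and heated again to 44 °C (45 min), which makes up the ACC, and then recovered at normal temperature. The other libraries were *hsfa2*, the double mutant *hsfa2 hsfa3-1*, and all 4 genotypes without HS and 4 h after ACC.

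Heat shock factors are transcription factors that bind heat shock elements in the promoters of chaperone genes and activate them when proteins unfold. In *Arabidopsis* some of these factors are themselves induced by heat, *HSFA3* downstream of the drought- and heat-responsive factor DREB2A, and a subset of heat-induced genes stays active for days after a moderate HS, a response called HS memory. Small heat shock proteins hold unfolded proteins in a soluble state, while HSP70, HSP90 and HSP100 chaperones refold or disaggregate them. The comparison asks which transcripts still depend on the *HSFA3* genotype when most of the early heat response has ended.

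Each library held between 29717072 and 33679916 read pairs on protein-coding genes, so that 3 counts, taken as the detection floor, correspond to at most 0.0997 CPM, where CPM are counts scaled to a common library size. Replicate 1 of Col at 28 h stood apart in mapping: it had 2.86% of its read pairs outside annotated genes and 2.34% mapping to several places, against at most 1.84% and 1.73% in the other 11. Light-harvesting transcripts, the shoot markers, summed to between 29450 and 42800 CPM in the 12 libraries and root markers to between 149 and 538 CPM, with both genotypes in overlapping ranges at 28 h. Seed storage and oil body transcripts summed to 36.5 CPM in replicate 1 of *hsfa3-1* at 28 h and to 19.1 CPM in replicate 1 of Col at 52 h, and to at most 7.58 CPM in the rest.

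The targeted gene was checked first. At 28 h *HSFA3* (AT5G03720, chromosome 5) stood at 4.89, 4.15 and 5.04 CPM in *hsfa3-1* and at 12.3, 11.7 and 8.57 CPM in Col. Values at 52 h were 4.72, 3.88 and 4.54 CPM in *hsfa3-1* and 10.6, 7.14 and 9.89 CPM in Col. The genotypes did not overlap at either time, but reads on the gene were not lost in the mutant: the log2 fold change was −1.21 ± 0.19 (SE, adjusted p = 0.00085) at 28 h and −1.07 ± 0.19 (adjusted p = 0.00786) at 52 h, where the call was lost without replicate 2 or 3 of *hsfa3-1* or replicate 1 or 3 of Col (adjusted p up to 0.132). The difference was −2.63 ± 0.18 (adjusted p = 2.28e-12) at 4 h, when *HSFA3* was highest in Col. Of the 10 protein-coding genes flanking *HSFA3*, 9 could be tested and 0 passed at 28 h or 52 h in edgeR's test or with DESeq2, with 1 lower and 1 higher at an unadjusted p below 0.05 at 28 h. The adjacent gene *AT5G03710* was called lower at 4 h (−4.35, adjusted p = 0.0178, edgeR). Its log2 fold changes at 28 h and 52 h were −1.89 and −1.83 and did not pass.

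At 28 h 307 genes were lower and 64 were higher in *hsfa3-1* than in Col, out of 21107 tested (edgeR's quasi-likelihood test, Benjamini-Hochberg adjusted p below 0.05, here termed called). These are 1.45% and 0.303% of the genes tested. Of the lower genes 51 had a log2 fold change below −1, and of the higher genes 7 had one above 1. At 52 h 10 genes were lower and 2 were higher, 0.0474% and 0.00948% of those tested. All 12 genes called at 52 h had been called in the same direction at 28 h: *HSP21*, *HSP18.2*, *HSP15.7*, *APX2*, *HSA32*, *HSFA3*, *MRD1*, *HEI10*, *AT5G06440* and *AT2G43630* were lower, and *UBQ14* and *GALS3* were higher. The time points share no library. Every *hsfa3-1* library lay below every Col library for 1234 of the 21107 genes tested at 28 h and for 1097 at 52 h. A lack of overlap was also a condition for the genes named by the size of their log2 fold change. In whole seedlings, fewer cells of a type and less RNA per cell cannot be told apart.

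*HSP21*, the small heat shock protein of plastids, was the heat response gene that kept its call at both times whichever library was left out. At 28 h it reached 9.75, 6.31 and 9.36 CPM in *hsfa3-1*, against 170.5, 128 and 76.3 CPM in Col. At 52 h it had dropped in both genotypes, to 0.944, 0.143 and 0.314 CPM in *hsfa3-1*, against 13.2, 4.304 and 4.38 CPM in Col. Every *hsfa3-1* library lay below every Col library at each time, with log2 fold changes of −3.88 ± 0.45 (adjusted p = 1.5e-06) and −3.95 ± 0.57 (adjusted p = 0.000264).

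*FTSH6*, which encodes a plastid protease of the FtsH family, had the largest negative log2 fold change at 28 h among the genes named. Its level was 0.445, 0.540 and 0.429 CPM in *hsfa3-1* and 62.2, 28.9 and 15.9 CPM in Col. The Col libraries spread widely but all lay far above the mutant, and the log2 fold change was −6.23 ± 0.58 (adjusted p = 2.1e-08). At 52 h it was low in both genotypes, at 0.343, 0.0285 and 0.171 CPM in *hsfa3-1* and 1.77, 0.644 and 0.933 CPM in Col. The genotypes still did not overlap, but the log2 fold change of −2.60 ± 0.73 did not pass (adjusted p = 0.382).

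The other small heat shock proteins that passed were *HSP18.2*, a cytosolic member, *HSP22*, a member of the endoplasmic reticulum, and *HSP15.7*, a peroxisomal member. *HSP18.2* had 667, 672 and 892 CPM in *hsfa3-1* at 28 h, against 5428, 2915 and 2464 CPM in Col. At 52 h it had 146, 71.4 and 97.4 CPM in *hsfa3-1*, against 548, 273 and 404 CPM in Col. It fell by 2.28 ± 0.39 on the log2 scale at 28 h (adjusted p = 0.00202) and by 1.96 ± 0.39 at 52 h (adjusted p = 0.0312), again with no overlap. *HSP22* had 63.3, 65.1 and 73.0 CPM in *hsfa3-1* at 28 h, against 401, 288 and 286 CPM in Col, a log2 fold change of −2.27 ± 0.48 (adjusted p = 0.0121). At 52 h the *HSP22* libraries also did not overlap, at 13.5, 7.81 and 7.34 CPM in *hsfa3-1* against 51.0, 34.7 and 41.2 CPM in Col, and the log2 fold change of −2.15 ± 0.50 missed the threshold (adjusted p = 0.114). *HSP15.7* had 10.98, 14.01 and 14.6 CPM in *hsfa3-1* at 28 h, against 33.4, 31.9 and 26.4 CPM in Col, and 5.44, 9.15 and 6.68 CPM in *hsfa3-1* at 52 h, against 17.9, 24.6 and 19.1 CPM in Col. It passed at both times with no overlap, at log2 fold changes of −1.21 ± 0.25 (adjusted p = 0.0107) and −1.53 ± 0.26 (adjusted p = 0.00211). The calls of these 3 genes rested on single libraries: without replicate 1 of Col at 28 h the adjusted p was 0.0536 for *HSP18.2*, 0.104 for *HSP22* and 0.0915 for *HSP15.7*. Those of *HSP22* and *HSP15.7* were also lost without replicate 2 (0.0907 and 0.0587) or 3 (0.0877 and 0.0526) of *hsfa3-1* at 28 h. At 52 h the adjusted p of *HSP18.2* was 0.239 and 0.295 without replicates 2 and 3 of *hsfa3-1* and 0.265 and 0.0752 without replicates 1 and 3 of Col, and that of *HSP15.7* was 0.0741 and 0.0555 without replicates 1 and 3 of *hsfa3-1*.

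**Figure D1:**
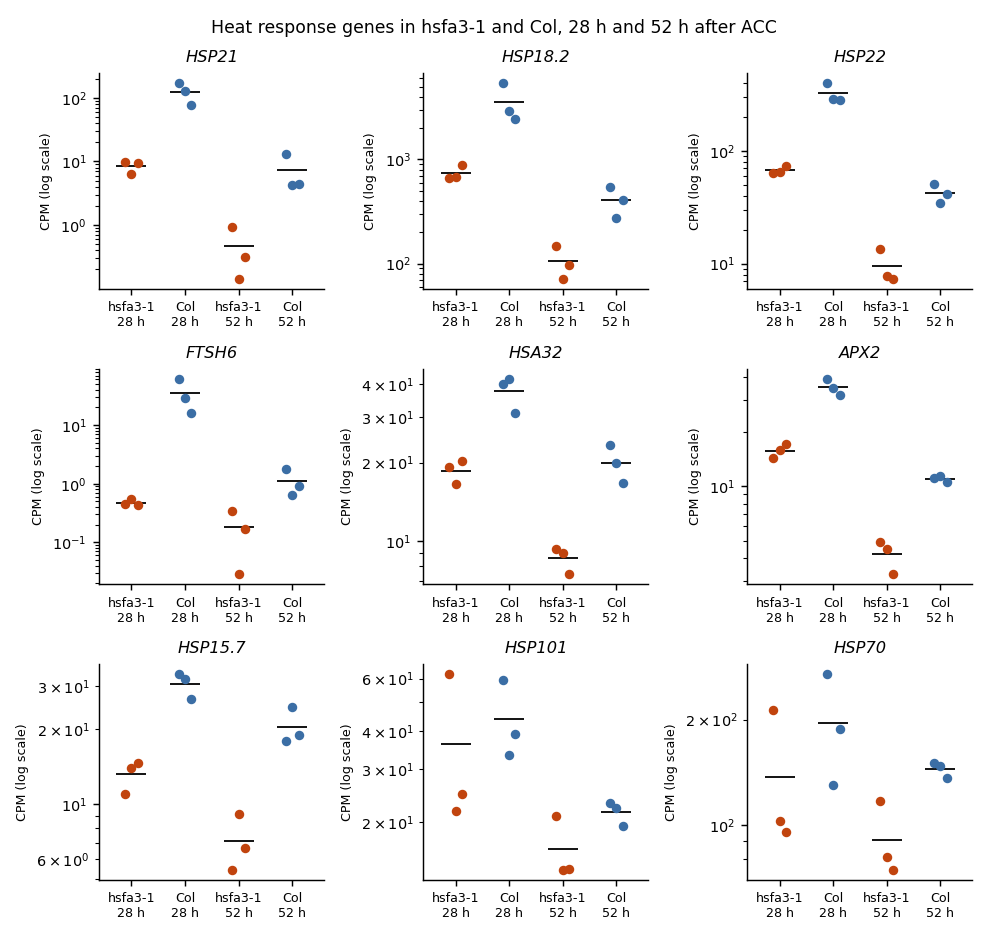
Levels of 9 heat response genes in CPM (log axis) in the 3 libraries of *hsfa3-1* (red) and of Col (blue) at each late time (28 h, 52 h), with the group mean as a line. The genotypes do not overlap for *HSP21*, *HSP18.2*, *HSP22*, *FTSH6*, *HSA32*, *APX2* and *HSP15.7* at either time, while *HSP101* and *HSP70* overlap at 28 h. At 52 h the log2 fold changes of *HSP101* and *HSP70* were −0.41 and −0.67 and did not pass. Of all 21107 genes tested, 1234 at 28 h and 1097 at 52 h are lower in *hsfa3-1* without overlap.

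Among the other heat response genes, *HSA32*, a heat-stress-associated protein needed for long-term acquired thermotolerance, and *APX2*, a cytosolic ascorbate peroxidase, passed at both times. *HSA32* had 19.1, 16.5 and 20.2 CPM in *hsfa3-1* at 28 h, against 40.2, 42.1 and 31.0 CPM in Col. At 52 h it had 9.33, 8.95 and 7.42 CPM in *hsfa3-1*, against 23.3, 19.9 and 16.6 CPM in Col. The log2 fold changes were −1.02 ± 0.20 (adjusted p = 0.0067) at 28 h and −1.22 ± 0.20 (adjusted p = 0.00211) at 52 h, and the genotypes did not overlap. *APX2* had 14.3, 15.8 and 17.0 CPM in *hsfa3-1* at 28 h, against 39.3, 35.0 and 31.97 CPM in Col. Its level at 52 h was 4.92, 4.50 and 3.26 CPM in *hsfa3-1*, against 11.1, 11.3 and 10.5 CPM in Col. These are log2 fold changes of −1.17 ± 0.26 (adjusted p = 0.0135) and −1.38 ± 0.28 (adjusted p = 0.0312). *HSA32* lost its call at 28 h without replicate 2 of *hsfa3-1* (adjusted p = 0.0737) or replicate 1 of Col (0.0703), and at 52 h without replicate 3 of *hsfa3-1* (0.0599). *APX2* lost its call at 28 h without replicate 2 or 3 of *hsfa3-1* or replicate 1 of Col (adjusted p up to 0.13), and at 52 h without any 1 of the 6 libraries (adjusted p between 0.0752 and 0.368).

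*HSP101*, the cytosolic disaggregase, and *HSP70* (AT3G12580), a cytosolic HSP70, serve the study as heat-induced genes without memory. *HSP101* had 62.1, 21.72 and 24.7 CPM in *hsfa3-1* at 28 h, against 59.5, 33.4 and 39.1 CPM in Col, so the genotypes overlapped. Its log2 fold change was −0.28 ± 0.38 (adjusted p = 0.826) at 28 h and −0.41 ± 0.38 (adjusted p = 1) at 52 h. *HSP70* gave −0.52 ± 0.40 (adjusted p = 0.615) and −0.67 ± 0.40 (adjusted p = 1). *HSFA2*, a related heat-induced factor, had 20.9, 4.83 and 7.44 CPM in *hsfa3-1* at 28 h, against 16.1, 6.58 and 7.36 CPM in Col. In both genotypes replicate 1 was the high library, and the log2 fold change was 0.15 ± 0.51 (adjusted p = 0.945) at 28 h and −0.28 ± 0.59 (adjusted p = 1) at 52 h. None of these 3 values was stable to single libraries at 28 h. With 1 of the 6 libraries left out, *HSP101* lay between −0.921 (without replicate 1 of *hsfa3-1*) and −0.00339 (without replicate 1 of Col), *HSP70* between −0.98 and −0.216, and *HSFA2* between −0.704 and 0.668, leaving out the same libraries. With 1 library left out at 52 h, *HSP101* lay between −0.635 and −0.308 and *HSP70* between −0.893 and −0.546. Both were thus negative in each of these fits without passing, while *HSFA2* lay between −1.35 and 0.873. Without replicate 1 of every group *HSP101* passed as lower at 28 h (−0.65, adjusted p = 0.0152), while *HSP70* gave −0.68 (adjusted p = 0.0503).

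At 28 h the genes that passed among the large chaperones were *CLPB3*, *cpHSC70-1*, *cpHSC70-2* and *ROF2*. The first encodes the plastid ClpB disaggregase, the next pair the plastid HSP70 proteins, and the last an FKBP-type co-chaperone. *cpHSC70-1* had 763, 634 and 596 CPM in *hsfa3-1*, against 1571, 1054 and 876 CPM in Col, and fell by 0.81 ± 0.12 on the log2 scale (adjusted p = 0.000429). *CLPB3* had 159, 113 and 132 CPM in *hsfa3-1*, against 499, 237 and 188 CPM in Col, with the highest value in Col replicate 1. Its log2 fold change was −1.20 ± 0.25 (adjusted p = 0.0121), that of *cpHSC70-2* −0.42 ± 0.10 (adjusted p = 0.0307) and that of *ROF2* −1.16 ± 0.32 (adjusted p = 0.0498). None of these 4 passed at 52 h, where the log2 fold changes were −0.33 ± 0.25 for *CLPB3*, −0.33 ± 0.12 for *cpHSC70-1*, −0.14 ± 0.10 for *cpHSC70-2* and −0.85 ± 0.32 for *ROF2* (adjusted p = 1 for each). *GOLS1*, a galactinol synthase of the raffinose pathway, and *MIPS2*, which makes the inositol phosphate that pathway starts from, also passed at 28 h only, with −1.28 ± 0.31 (adjusted p = 0.024) and −0.88 ± 0.19 (adjusted p = 0.0121). At 52 h *GOLS1* still gave −0.95 ± 0.31 (adjusted p = 0.736), and *MIPS2* averaged 15.3 ± 4.16 CPM in *hsfa3-1* and 15.3 ± 1.29 CPM in Col (SD, n = 3 each). Of the 6 genes of this paragraph, *cpHSC70-1* kept its call whichever library was left out. The others lost it without replicate 2 or 3 of *hsfa3-1* or replicate 1 of Col at 28 h, the last giving adjusted p values between 0.209 for *MIPS2* and 0.439 for *ROF2*.

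Over whole lists, 4 of 19 small heat shock proteins were lower at 28 h and 3 at 52 h, 21.1% and 15.8% of the list, and 0 were higher. Their median log2 fold change was −0.80 at 28 h and −0.98 at 52 h, beside −0.00336 and 0.00298 over all genes tested, and DESeq2 called 4 lower at each time. Negative values were found for 17 of the 19 at 28 h and 18 at 52 h, but most missed the threshold. Over all genes tested, 50.7% and 49% were negative, and 1.45% and 0.0474% were called lower. Of 27 large chaperones and co-chaperones 4 were lower at 28 h (14.8%) and 0 at 52 h, with medians of −0.39 and −0.07, and 0 were higher. Of 18 other heat response genes 5 were lower at 28 h (*FTSH6*, *GOLS1*, *APX2*, *HSA32* and *MIPS2*) and 2 at 52 h (*APX2* and *HSA32*), with medians of −0.40 and −0.42. These are 27.8% and 11.1% of that list. Among 19 heat shock factors *HSFA3* itself was the gene called at either time, with medians over the list of −0.01 and 0.03.

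**Figure D2:**
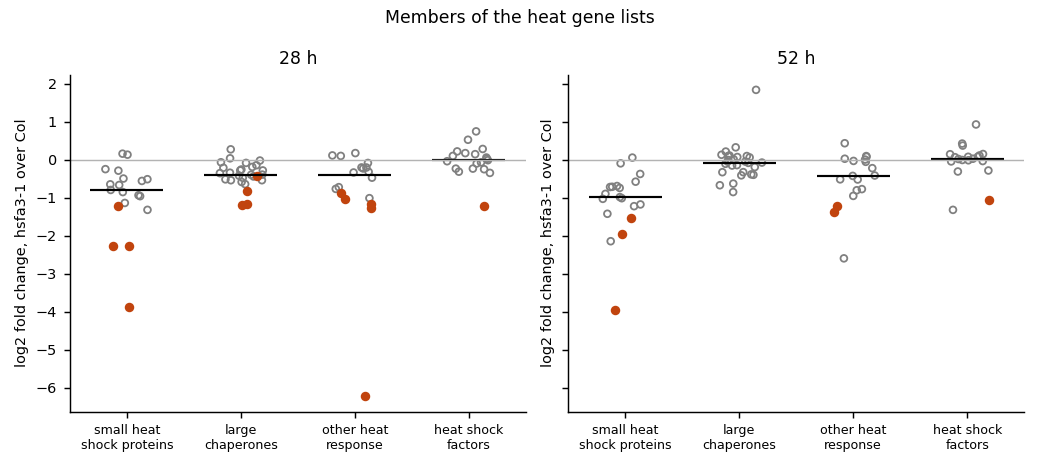
Log2 fold change of *hsfa3-1* over Col at 28 h (left) and 52 h (right) for each tested member of the 4 heat gene lists. Filled points passed the test and lines are list medians, which are −0.80 at 28 h and −0.98 at 52 h for the small heat shock proteins.

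The level of the small heat shock proteins also varied within genotypes. Relative to the Col mean, their median in the 3 *hsfa3-1* libraries was −0.07, −1.36 and −1.06 on the log2 scale at 28 h and −0.16, −1.53 and −1.27 at 52 h. The 3 Col libraries lay at 0.52, −0.15 and −0.31 at 28 h and at 0.58, −0.27 and −0.47 at 52 h. Replicate 1 was the highest in each of the 4 groups, and replicate 1 of *hsfa3-1* lay above replicates 2 and 3 of Col at both times, so that the medians of the genotypes overlapped. Between libraries of the same number the *hsfa3-1* median was the lower in each case, though the numbers were not taken to pair the late libraries. For 167 genes that were called as induced in Col with a log2 fold change above 1 at each of the 3 times after ACC (HS memory genes), the *hsfa3-1* medians were −0.29, −0.76 and −0.52 at 28 h, against 0.16, 0.02 and −0.17 in Col, with no overlap. At 52 h they were −0.25, −0.70 and −0.51 in *hsfa3-1*, against 0.18, −0.11 and −0.09 in Col. Of these genes 34 were lower at 28 h (20.4%) and 5 at 52 h (2.99%), against 1.45% and 0.0474% of all genes tested. The 167 genes were chosen with the same Col libraries and are therefore described and not tested.

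A set chosen without the late libraries is the 3565 genes (16.9% of those tested) that were induced in Col at 4 h with a log2 fold change above 1. At 28 h 135 of them were lower and 3 higher in *hsfa3-1*, and the share lower was 3.79%, against 1.45% of all genes tested. Among the 571 with an induction above 3, 44 were lower, 7.71%, and the median log2 fold change was −0.17. At 52 h the 571 genes held 6 of the 10 lower genes and had a median of −0.05. Conversely, 172 of the 307 genes lower at 28 h were not in the larger set. Of these, 84 were called higher in Col at 4 h than without HS by a smaller change, and 33 were called lower. Of all 307, 219 were called higher in Col at 4 h, against 7487 of the 21107 genes tested. Those 172 had a median log2 fold change of −0.49, against −0.70 for the 135.

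Perfect heat shock elements, in which 3 units alternate between GAA and TTC with 2 free bases between units (either unit first, both strands searched), were rare in the 500 bases before the annotated start. They lay before 185 of the 21107 genes tested (0.876%) and before 6 of the 307 genes lower at 28 h (1.95%). With 8 of the 9 defined bases required, an element lay before 3507 genes (16.6%), 75 of the 307 lower genes (24.4%), 23 of the 51 with a log2 fold change below −1 (45.1%) and 7 of the 64 higher genes (10.9%). Among the genes induced in Col at 4 h the share was 18.8% for a log2 fold change above 1 and 24.7% for one above 3. No test was made of these shares. The best element before 4 heat response genes called at 28 h is shown to place the changed transcripts beside their upstream sequence, in capitals within its flanks, 5′ to 3′ on the gene's strand (RefSeq, TAIR10.1). It starts 105 bases before *HSP21* (chromosome 4), 96 before *HSP22* (chromosome 4), 187 before *FTSH6* (chromosome 5) and 100 before *GOLS1* (chromosome 2), and only the last is a perfect match.
HSP21: aaaacgaGTCGAGAAACTTCgtatcaa
HSP22: tttacatGAAGTCTCTGGAAcatgaga
FTSH6: atctctgGATCATTCAAGAAgacagtt
GOLS1: tcccactTTCCAGAACTTTCacggttt
*HSP18.2*, *HSA32*, *APX2* and *HSP15.7* had no element with 8 or more of the 9 bases in this window, and a match is a description and not a binding site. *HSFA2*, not called at 28 h, had a perfect element starting 88 bases before it. *HSP101*, also not called, had one with 8 of the 9 bases 453 bases before it, and *HSP70* had none. The search covered only this pattern of 3 units within 500 bases. By chromatin immunoprecipitation the study found HSFA3 at promoter sequences with heat shock elements of *HSP22*, *HSP18.2*, *HSA32* and *APX2*.

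Part of what separated *hsfa3-1* from Col late after HS was already present without HS. Without HS 6 genes passed (0.0284% of those tested), and all 6 are among the 12 called at 28 h and at 52 h. These were *UBQ14*, a polyubiquitin gene, *GALS3*, a galactan synthase, *HEI10*, a meiotic crossover factor, *MRD1*, *AT5G06440* and *HSFA3*. *UBQ14* had 129, 123 and 109 CPM in *hsfa3-1* at 28 h, against 9.90, 17.96 and 16.8 CPM in Col. At 52 h it had 106, 115 and 96.3 CPM in *hsfa3-1*, against 21.9, 14.5 and 12.4 CPM in Col. The log2 fold change was 3.02 ± 0.18 (adjusted p = 6.06e-14) at 28 h, 2.70 ± 0.18 (adjusted p = 1.23e-12) at 52 h and 2.96 ± 0.18 (adjusted p = 9.12e-14) without HS. It shares nearly identical coding repeats with other polyubiquitin genes, so its counts are uncertain. *GALS3* was higher in *hsfa3-1* by 0.65 ± 0.11 at 28 h (adjusted p = 0.0013), 0.89 ± 0.11 at 52 h (adjusted p = 1.06e-05) and 0.81 ± 0.11 without HS (adjusted p = 7.94e-05), on the log2 scale.

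*MRD1* and *HEI10* are neighbours on chromosome 1 with overlapping annotations. *MRD1* was at 0, 0.0284 and 0 CPM in *hsfa3-1* at 28 h, under the floor, against 0.332, 0.823 and 0.528 CPM in Col. *HEI10* had 1.39, 1.99 and 1.17 CPM in *hsfa3-1* at 28 h, against 4.05, 3.32 and 3.01 CPM in Col, and gave −1.19 ± 0.21 (adjusted p = 0.00202) at 28 h and −1.03 ± 0.21 (adjusted p = 0.0312) at 52 h. *AT5G06440*, on chromosome 5 like *HSFA3*, had 24.4, 20.3 and 21.5 CPM in *hsfa3-1* at 28 h, against 37.1, 39.5 and 33.0 CPM in Col. Its log2 fold changes were −0.73 ± 0.15 (adjusted p = 0.00851) at 28 h, −1.002 ± 0.15 (adjusted p = 0.000276) at 52 h and −0.99 ± 0.15 (adjusted p = 0.000489) without HS. The call of *AT5G06440* at 28 h was lost without replicate 2 or 3 of *hsfa3-1* or replicate 1 of Col (adjusted p up to 0.08), and that of *HEI10* at 52 h without any 1 of the 6 libraries (adjusted p up to 0.245).

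The levels in the other genotypes divide these 6 genes. Over all 12 libraries of a genotype, *UBQ14* ranged from 96.3 to 1840 CPM in *hsfa3-1*, from 111 to 1823 CPM in *hsfa2 hsfa3-1* and from 118 to 1911 CPM in *hsfa2*, but from 9.90 to 256 CPM in Col. *MRD1* was at most 0.0285 CPM in *hsfa3-1*, 0.0283 CPM in *hsfa2 hsfa3-1* and 0.0311 CPM in *hsfa2*, and at least 0.332 CPM in Col. *HEI10* had a median of 1.53 CPM in *hsfa3-1*, 1.53 CPM in *hsfa2 hsfa3-1*, 1.29 CPM in *hsfa2* and 3.38 CPM in Col, and *GALS3* one of 17.81 CPM in *hsfa3-1*, 18.7 CPM in *hsfa2 hsfa3-1*, 18.3 CPM in *hsfa2* and 10.01 CPM in Col. For these 4 genes the *hsfa2* libraries, which carry no *hsfa3-1* allele, thus had levels like those of *hsfa3-1*, and at each time no Col library overlapped with those of the 3 mutant lines. *HSFA3* and *AT5G06440* divided along the *hsfa3-1* allele instead, the second with overlap at 4 h. Over all times *AT5G06440* had a median of 20.8 CPM in *hsfa3-1*, 22.4 CPM in *hsfa2 hsfa3-1*, 39.0 CPM in *hsfa2* and 37.6 CPM in Col.

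**Figure D3:**
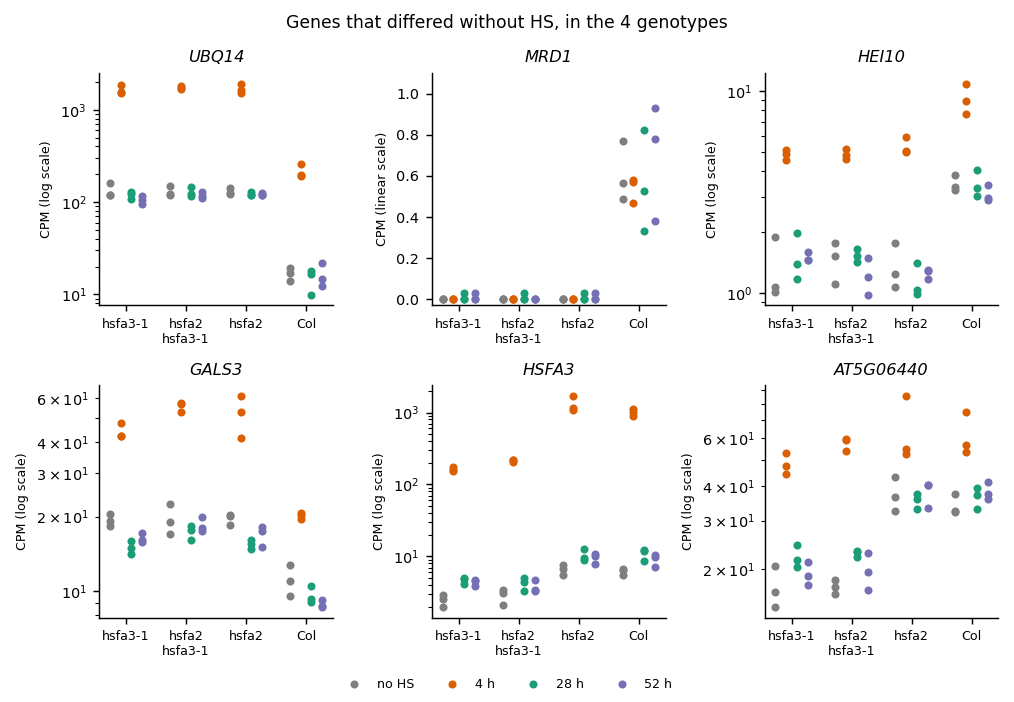
Levels in CPM of the 6 genes that differed between *hsfa3-1* and Col without HS, in every library of the 4 genotypes, coloured by time point (log axes, except a linear axis for *MRD1*). *UBQ14*, *MRD1*, *HEI10* and *GALS3* set Col apart from all 3 mutant lines at each time, while *HSFA3*, and *AT5G06440* except at 4 h, set both *hsfa3-1* genotypes apart from *hsfa2* and Col at matched times.

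The remaining 6 of the 12 genes, *HSP21*, *HSP18.2*, *HSP15.7*, *APX2*, *HSA32* and *AT2G43630*, did not pass without HS. *HSP21* was low there, at 0.174, 0.647 and 0.237 CPM in *hsfa3-1* and at 0, 0.0299 and 0.0611 CPM in Col, and *HSA32* had 4.07, 3.01 and 4.04 CPM in *hsfa3-1* against 4.72, 3.28 and 4.07 CPM in Col. *AT2G43630* gave the smallest differences of the 12, −0.34 ± 0.07 at both 28 h (adjusted p = 0.0121) and 52 h (adjusted p = 0.0495), and lost its call without several single libraries at each time (adjusted p up to 0.0919 and 0.521). Whether a genotype difference at a late time exceeded that without HS was tested as an interaction, and 0 genes passed for 28 h, for 52 h or between 52 h and 28 h (edgeR). At an unadjusted p below 0.05 the interaction at 28 h had 1045 genes lower and 539 higher, the one at 52 h 226 and 96, and the one between the late times 563 and 719. DESeq2 gave 5 lower and 5 higher, 1 and 0, and 0 and 0. The interaction of *HSP21* at 28 h was −7.28 ± 1.36 on the log2 scale (adjusted p = 0.0841) and that of *HSP18.2* −2.99 ± 0.61 (adjusted p = 0.105).

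The same allele can be read a further time in *hsfa2 hsfa3-1* against *hsfa2*, with no library in common. At 28 h 38 genes were lower in the double mutant (0.18% of those tested). Of the 307 genes lower in *hsfa3-1* at 28 h, 29 were among them, 278 had a negative value, and the median was −0.15. In this comparison 50.2% of all genes tested had a negative value. *HSP21* had 1.08, 1.08 and 0.994 CPM in *hsfa2 hsfa3-1*, against 38.7, 9.88 and 16.7 CPM in *hsfa2*, a log2 fold change of −4.37 ± 0.51 (adjusted p = 1.93e-06). *FTSH6* gave −4.39 ± 0.65 (adjusted p = 0.0003), *HSP22* −2.63 ± 0.52 (adjusted p = 0.0104), *HSP15.7* −2.23 ± 0.28 (adjusted p = 1.15e-05), *HSA32* −1.64 ± 0.21 (adjusted p = 1.15e-05) and *GOLS1* −1.38 ± 0.31 (adjusted p = 0.0416). *HSP18.2* was the exception among the small heat shock proteins called, with 91.9, 129 and 118 CPM in *hsfa2 hsfa3-1* against 206, 115 and 140.4 CPM in *hsfa2*, which overlapped (−0.44 ± 0.38, adjusted p = 1). The baseline of this reading was itself reduced, since *hsfa2* was already lower than Col at 28 h for these genes (edgeR). The log2 fold change there was −4.55 for *HSP18.2* (adjusted p = 1.48e-08), −3.57 for *HSP22*, −3.06 for *FTSH6* and −2.52 for *HSP21*. It was −1.64 for *GOLS1*, −1.60 for *HSP15.7* and −1.16 for *HSA32* (adjusted p up to 0.00253 for these 7). At 52 h 3 genes were lower in the double mutant (0.0142% of those tested), *HSFA3* and *AT5G06440* among them, while *HSP21* gave −1.38 ± 0.87 (adjusted p = 1). Of the 64 genes higher at 28 h, 56 had a positive value in the double mutant comparison at 28 h and 40 in *hsfa3-1* at 52 h. Over all genes tested, 50.2% were negative in the former comparison and 49% in the latter.

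**Figure D4:**
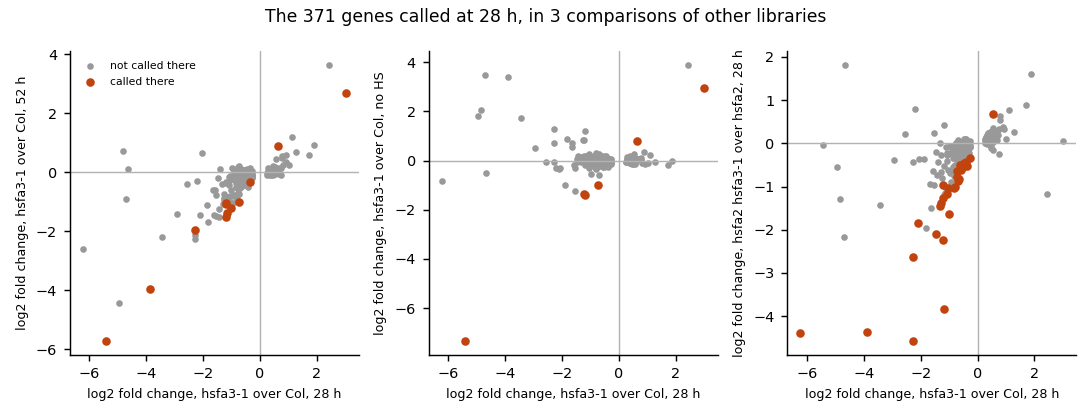
The genes called at 28 h, with their log2 fold change of *hsfa3-1* over Col at 28 h on the x axis and their log2 fold change in 3 comparisons of other libraries on the y axis: *hsfa3-1* over Col at 52 h, the same without HS, and *hsfa2 hsfa3-1* over *hsfa2* at 28 h. Red points were called there as well, which holds for 29 of the 307 lower genes in the double mutant comparison.

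Of the 307 genes lower at 28 h, 246 (80.1%) had a negative value at 52 h and 167 (54.4%) without HS, with medians of −0.08 and −0.01. Over all genes tested, 49% were negative at 52 h and 46.7% without HS. For the 51 with a log2 fold change below −1 at 28 h, 47 were negative at 52 h and 25 without HS, and the medians were −0.91 and 0.05. *AT5G62730* was one of them, with 1.195, 2.08 and 1.66 CPM in *hsfa3-1* at 28 h, against 9.21, 5.79 and 6.31 CPM in Col. It gave −2.11 ± 0.32 (adjusted p = 0.000429) at 28 h, −1.45 ± 0.32 (adjusted p = 0.0864) at 52 h and −1.84 ± 0.34 (adjusted p = 0.00506) in *hsfa2 hsfa3-1* over *hsfa2* at 28 h. *NDB4*, an external NAD(P)H dehydrogenase of mitochondria, gave −2.20 ± 0.53 (adjusted p = 0.0251) at 28 h but −0.29 ± 0.55 (adjusted p = 1) at 52 h, and 0.80 ± 0.55 (adjusted p = 1) in *hsfa2 hsfa3-1* over *hsfa2* at 28 h, and its call was lost without replicate 2 or 3 of *hsfa3-1* or replicate 1 or 2 of Col (adjusted p up to 0.224). In the early recovery at 4 h 431 genes were lower in *hsfa3-1* (2.04% of those tested), *FTSH6*, *HSP15.7*, *MIPS2* and *cpHSC70-1* among them, and *HSP21* gave −0.77 ± 0.39 (adjusted p = 0.523).

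The 64 genes higher in *hsfa3-1* at 28 h had a median log2 fold change of 0.49, and the 307 lower genes one of −0.55. *ECS1* had 167, 169 and 138 CPM in *hsfa3-1*, against 59.2, 41.2 and 96.6 CPM in Col, a log2 fold change of 1.27 ± 0.24 (adjusted p = 0.00549). *LOX2*, the plastid lipoxygenase of jasmonate synthesis, had 196, 123 and 100.3 CPM in *hsfa3-1*, against 66.3, 51.1 and 76.3 CPM in Col (1.11 ± 0.28, adjusted p = 0.0315). Without replicate 1 of Col the adjusted p was 0.0898 for *ECS1* and 0.211 for *LOX2*, and *LOX2* also lost its call without any 1 of the *hsfa3-1* libraries or replicate 2 of Col. Both were lower in Col at 28 h than without HS, *ECS1* by 1.83 and *LOX2* by 1.39 on the log2 scale. At 52 h *LOX2* had 795, 253 and 424 CPM in *hsfa3-1*, against 241, 224 and 177 CPM in Col, with no overlap, and missed the threshold (1.195 ± 0.28, adjusted p = 0.116), though it passed without replicate 2 of *hsfa3-1* (adjusted p = 0.00646). *SNRK2-8*, a protein kinase gene, and *PUP1*, a purine permease gene, gave 0.79 ± 0.19 (adjusted p = 0.0243) and 0.77 ± 0.21 (adjusted p = 0.0476) at 28 h. With 1 of the 6 libraries left out, *SNRK2-8* kept this call in 1 of 6 fits and *PUP1* in 2 of 6. Neither gene passed at 52 h, where the log2 fold changes were 0.48 and 0.57.

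Lists outside the heat response held 0 called genes in either direction at either time (edgeR): 12 clock genes, 17 dehydration and cold response genes, 13 flavonoid genes, 13 salicylic acid defence genes, 16 cell division genes, 18 light-harvesting genes, 13 root markers and 9 seed genes. At an unadjusted p below 0.05, 8 of these 111 genes were higher and 0 lower at 28 h, and 2 were higher and 5 lower at 52 h, and DESeq2 called 1 light-harvesting gene higher at 28 h. Over all 21107 genes tested, 0.303% were called higher and 1.45% lower at 28 h, and 0.00948% and 0.0474% at 52 h. The unadjusted p was below 0.05 for 1083 higher and 1923 lower genes at 28 h, and for 263 and 434 at 52 h. At these shares few or no calls would be met in lists of this size, so the 0 does not set them apart. At 52 h all 13 flavonoid genes had positive values, with a median log2 fold change of 0.99, and 12 of 13 root markers did, with a median of 0.48. The root markers summed to 275, 538 and 317 CPM in *hsfa3-1* at 52 h and to 181, 377 and 287 CPM in Col. All 18 light-harvesting genes had negative values at 52 h, with a median of −0.23, and likewise without HS, with a median of −0.19, whereas at 28 h 1 of the 18 was negative and the median was 0.19. At 52 h they had sums of 33310, 32970 and 32090 CPM in *hsfa3-1* against 42800, 38140 and 33110 CPM in Col. What part these marker levels have in the results was not tested.

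The number of genes called at 28 h rested on single libraries. Without replicate 2 or 3 of *hsfa3-1*, or replicate 1 of Col, 24, 25 and 16 genes were lower and 5, 3 and 2 were higher, whereas without replicate 1 of *hsfa3-1* or replicate 3 of Col 743 and 982 were lower and 125 and 283 were higher. Without replicate 2 of Col 262 were lower and 132 higher. A fit on the 6 libraries of the time point alone called *UBQ14*, *HSP22*, *HSP21* and *FTSH6* at 28 h and *UBQ14* at 52 h, and it gave an unadjusted p below 0.05 in the same direction for 331 of the genes called at 28 h and all 12 at 52 h. Those calls rest on the same 6 libraries, so these counts are no separate test of them. Of the 35 named genes called at 28 h, 9 kept their call whichever library was left out: *FTSH6*, *HSP21*, *cpHSC70-1*, *AT5G62730*, *HSFA3*, *UBQ14*, *GALS3*, *HEI10* and *MRD1*. At 52 h these were 5 of 12, *HSP21*, *AT5G06440*, *UBQ14*, *GALS3* and *MRD1*. At 52 h the lower genes numbered 6, 5 and 3 without replicate 1, 2 or 3 of *hsfa3-1*, 5 without replicate 1 of Col, and 8 without replicate 2 or 3 of Col, and the higher genes numbered 6 without replicate 2 of *hsfa3-1* and 2 without any other.

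**Figure D5:**
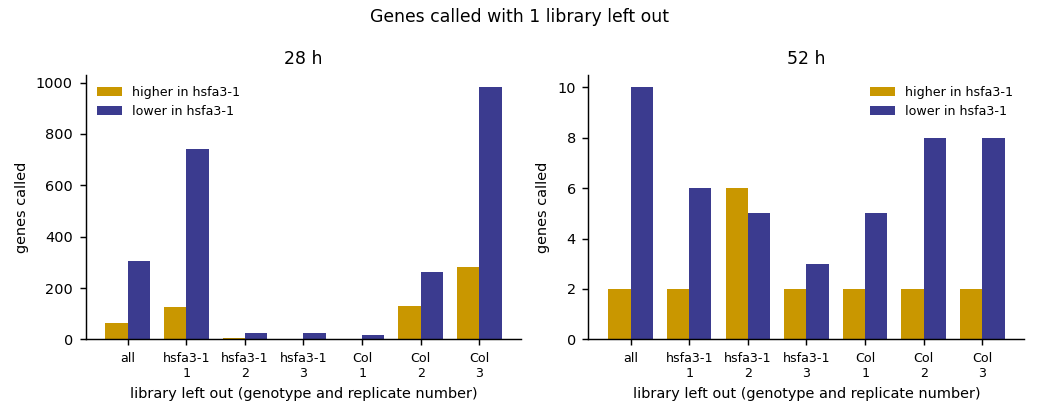
Number of genes called higher (yellow) and lower (blue) in *hsfa3-1* at 28 h (left) and 52 h (right) with all 6 libraries and with each library left out in turn. At 28 h the lower genes number between 16 and 982, and at 52 h between 3 and 10.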

How the data were processed

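RNA-seq libraries were sequenced as paired reads on the DNBseq platform, aligned to TAIR10 with STAR 2.5.1a and summarised by the authors with STAR's gene counting. The deposited values are counts of read pairs per gene, not normalized. Which strand column was kept is not given in the sources used here, so 21 of the 47 named genes, which overlap another annotated gene, are uncertain (*HSFA3*, *HSA32*, *FTSH6*, *UBQ14*, *MRD1*, *HEI10*, *cpHSC70-1*, *CLPB3*, *GOLS1* and *MIPS2* among them). The 3 replicates of a group are biological replicates per the study, numbered in the labels.

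Of 33323 genes 32835 matched the TAIR10.1 gene table by locus, and the 26712 protein-coding ones were used. edgeR 4.0.16 (run in R 4.3.3) was used for the tests on these counts: filterByExpr (21107 genes kept), TMM, a quasi-likelihood fit of 16 groups of genotype and time point to all 48 libraries (32 residual degrees of freedom), and Benjamini-Hochberg adjustment over all genes per contrast with a threshold of 0.05. Each SE is the log2 fold change, without its sign, over the root of its F statistic. CPM use TMM-normalized library sizes. Medians per library are log2 CPM with a prior count of 2. The fit was tested on simulated data. Promoter windows were read from the RefSeq TAIR10.1 sequence by gene. Because the authors used TAIR10, no coordinates are given.

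Named genes were *HSFA3* and *HSFA2*, the genes assayed in the study (*HSA32*, *HSP18.2*, *HSP22*, *HSP21*, *APX2*, *HSP101* and *HSP70*), the 10 called genes with the largest log2 fold changes per direction and time with no overlap and a mean of at least 1 CPM, genes called at both late times, called list members and 5 neighbours of *HSFA3* per side; not all are discussed. The members, lists and comparisons were chosen with earlier results of these data known. The test between genetic backgrounds, the leave-one-library counts for named genes, the calls listed for the 6-library fit and the relaxed heat shock element were added after seeing the data. Alternatives were DESeq2 1.42.0, other normalization and filters, all genes, the replicate block and leaving out libraries.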

Additional observations from a re-analysis of the deposited data

Results flagged for a closer look

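The difference between *hsfa3-1* and Col was set against that between *hsfa2 hsfa3-1* and *hsfa2*, as an interaction in the same edgeR fit, and these genes differed. For *UBQ14* the interaction was 2.95 ± 0.25 on the log2 scale at 28 h (SE, adjusted p = 7.67e-10), 2.73 ± 0.24 at 52 h (adjusted p = 6.36e-09) and 2.96 ± 0.24 without HS (adjusted p = 6.72e-10). *GALS3* gave 0.82 ± 0.15 without HS (adjusted p = 0.021) and *HEI10* −1.61 ± 0.30 at 28 h (adjusted p = 0.0342). *APX2* gave 2.66 ± 0.51 at 28 h (adjusted p = 0.0342), since it had 0.170, 0.313 and 0.322 CPM in *hsfa2 hsfa3-1* against 6.75, 1.93 and 2.91 CPM in *hsfa2* at that time, a log2 fold change of −3.84 ± 0.42 (adjusted p = 5.68e-07), larger in size than the −1.17 in the wild-type background. In all, 3 genes were lower and 2 higher in this interaction at 28 h, 0 and 1 at 52 h (70 and 117 at an unadjusted p below 0.05), and 1 and 3 without HS.

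For *HSP21* every *hsfa3-1* library lay below every Col library at 28 h (−3.88) and at 52 h (−3.95), and every one lay above without HS, at levels of at most 0.647 CPM. The interaction of *HSP21* at 28 h against no HS gave an adjusted p of 0.0841.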

How the results depend on the processing

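The counts of genes called moved with several choices, in each case without a tested cause. DESeq2 called 590 genes at 28 h, 154 of them higher, and 4 higher and 22 lower at 52 h. It shared 357 of the 371 calls at 28 h and all 12 at 52 h. No filter on low counts left 38 higher and 179 lower at 28 h, and testing all genes in the files gave 5 higher at 52 h. With only the 6 libraries of a time point, 1 gene was higher and 3 lower at 28 h, and 1 higher and 0 lower at 52 h, where 381 were lower at an unadjusted p below 0.05 (edgeR). A limit of 1 on the log2 fold change left 7 higher and 51 lower at 28 h and 1 higher at 52 h, and an adjusted p below 0.01 left 3 higher and 37 lower at 28 h and 6 lower at 52 h.

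The replicate numbers were not taken to pair the late libraries: same-numbered libraries of the genotypes deviated from their group means with correlations of 0.393, −0.298 and 0.00944 at 28 h and 0.406, 0.406 and 0.0302 at 52 h. At neither late time did every library correlate best with its own number. Without HS the same-numbered pairs correlated at 0.571, 0.548 and 0.299 and each library best with its own number. With the replicate number as a block, 232 genes were higher and 811 lower at 28 h and 8 and 32 at 52 h, holding every call of the fit without it, and the interaction at 28 h gave 14 lower and 1 higher. Among the named genes *HSP22*, *ROF2*, *GOLS1*, *AT5G62730* and *LOX2* then passed at 52 h (adjusted p = 0.0107, 0.024, 0.0242, 0.0261 and 0.0434) and *AT5G03700*, next to *HSFA3*, at 28 h (−0.38, adjusted p = 0.0408).

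Leaving out 1 replicate number or 1 library gave 2 to 283 higher and 9 to 982 lower genes at 28 h, and 2 to 6 higher and 0 to 15 lower at 52 h. The 0 came without replicate 3 in all groups, when 333 genes were lower at an unadjusted p below 0.05. The median of the 571 strongly heat-induced genes ranged from −0.369 to −0.0495 at 28 h and from −0.17 to 0.0216 at 52 h, and the larger list of 3565 gave −0.0835 and −0.00571. No named gene changed sign in any alternative at a time when it was called with all libraries or in that alternative. At a time without a call some did, such as *NDB4* at 52 h, from −0.29 to 0.97 without replicate 1 of every group.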
